A study of Mus musculus with 17 samples.

Results

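Most proteins of the complement and clotting systems are made in the liver and secreted into blood. The genes described here are 35 mouse genes for such proteins, listed by symbol and matched to a deposited table of liver RNA through their Ensembl gene IDs. Of the 46073 genes in the table, 34 were these genes. No ID was matched to Klkb1 (plasma prekallikrein), which is therefore not analysed here. All 34 had a mean of at least 1 FPKM (the fragments of a gene divided by transcript length and by library size) over the 17 libraries, so none was lost to the filter on low values. They were sorted by role into 6 vitamin K dependent factors, 6 genes of the contact system, its cofactor and fibrin formation, 5 serpin inhibitors and fibrinolysis genes, 8 genes that start complement by the classical and lectin routes, 3 genes of C3 and the alternative route, and 6 genes of terminal complement.

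In clotting, a chain of proteases ends in thrombin, which turns soluble fibrinogen into fibrin, and plasmin later dissolves the fibrin. Serpins such as antithrombin and the protein C system restrain the chain. Complement is started by C1, by mannose-binding lectins or by the alternative route, converges on the cleavage of C3, and ends in a pore built from C5 to C9. Hepatocytes are the main source of nearly all of these proteins, and fibrinogen and C3 are known as acute phase proteins that the liver makes in larger amounts during inflammation.

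The libraries came from livers of male C57BL/6 mice aged 11 or 12 weeks, killed 24 hours after an injection of acetaminophen (APAP, a drug that in overdose kills hepatocytes near the central vein) or saline. The genotype labels were 3: Nampt +/+ (WT below), Nampt +/- (Het) and Nampt OE (OE), where Nampt encodes an enzyme of NAD synthesis. The APAP dose was 200 mg/kg except in a single OE mouse given 300 mg/kg. There were 3 WT saline, 3 WT APAP, 2 Het saline, 3 Het APAP, 2 OE saline and 2 OE APAP libraries, a single OE library at the higher dose, and a single WT library labelled as saline by IG. The labels give no construct, promoter or cell type for the OE label, and they do not state whether each library of a group is its own mouse. The p-values therefore reflect only how far these libraries scatter, which could be technical scatter. Livers were perfused before collection in some cases and not in others. Perfused livers were sequenced in lanes L007 and L008 and the others in lanes L004 to L006, and no lane held livers of both kinds. All WT APAP livers were in lane L005, and the WT saline livers in L006 and L007, so in WT the APAP response and a lane difference cannot be told apart, and the perfusion term does not remove this. The APAP response averaged over the 3 labels, given below, includes this WT difference and so carries the same limit. No WT APAP liver was perfused, whereas both Het saline livers were, and a term for perfusion was therefore part of every fit.

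The genotype labels were only in part borne out by Nampt itself, so they are used here as labels only. Under saline, Nampt was at 18.0, 15.3 and 18.0 FPKM in the WT libraries, 26.0 and 23.0 FPKM in the Het libraries and 22.4 and 27.2 FPKM in the OE libraries, so no Het value lay below the WT values. Under APAP it was at 12.0, 10.9 and 16.7 FPKM in WT, 15.4, 11.3 and 15.2 FPKM in Het and 36.0 and 18.5 FPKM in OE. The OE values lay above all WT values of the same treatment, but under saline they overlapped the Het values. Glul, the glutamine synthetase of hepatocytes around the central vein, checked the injury: it was 15.3 to 70.5 FPKM in the 9 libraries given APAP and 313 to 466 FPKM in the saline libraries other than OE saline 1, which was at 102 FPKM. The summed FPKM of a library ranged from 466883 to 916006, and since no read counts were used, the depth behind each value is unknown. Of 6 hepatocyte markers, Alb had the value 0 throughout, and the other genes summed to 10435 to 12482 FPKM in WT saline, 7216 to 11057 in WT APAP, 11316 to 11991 in Het saline, 6221 to 8315 in Het APAP, 10193 to 14754 in OE saline and 10529 to 12243 in OE APAP. Of 9 monocyte and macrophage markers, 7 rose with APAP (adjusted p below 0.05) and none was at 0 throughout, with sums of 53.5 to 97.8 FPKM in WT saline, 88.0 to 319 in WT APAP, 72.3 to 118 in Het saline, 230.1 to 356 in Het APAP, 42.4 to 112 in OE saline and 56.9 to 137 in OE APAP. Of 4 tested neutrophil markers 3 rose, and the list of 7 summed to 2.29 to 2.72 FPKM in WT saline, 8.46 to 105 in WT APAP, 2.57 to 3.43 in Het saline, 79.9 to 462 in Het APAP, 1.94 to 9.48 in OE saline and 5.76 to 72.6 in OE APAP. Of 6 tested pericentral hepatocyte markers 5 fell, with a median of -2.38 on the log2 scale, and of 6 periportal markers 3 fell, with a median of -0.56. Of 7 stellate cell and fibroblast markers 3 rose and 2 fell. Of all genes tested, 9.81% rose and 13.3% fell at the same threshold in the response averaged over the labels. In whole liver, fewer cells of a type and less RNA per cell cannot be told apart, and the part of the changing cell mix in the results below was not tested.

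The 4 promoters printed here are those of the 2 members that rose with APAP, Fgg and Cpb2, and of the 2 with the largest fall, F13b and Serpind1, to show what the regulatory DNA of genes that went opposite ways looks like. Each is 250 bases before to 50 bases after the start of the gene, from RefSeq on GRCm38.p6, 5′ to 3′ on the gene's own strand (plus for all 4), at chr3:83007474-83007773 for Fgg, chr14:75242037-75242336 for Cpb2, chr1:139501457-139501756 for F13b and chr16:17331121-17331420 for Serpind1. Capitals mark a match to a short motif on either strand: CTGGGAA (the core of an IL-6 response element) in Fgg, TTGCNNAA (a C/EBP type site, on the reverse strand) in Cpb2, GTTAAT (an HNF1 core, on the reverse strand) in F13b, and CAAAGT (part of an HNF4 site) in Serpind1.
Fgg: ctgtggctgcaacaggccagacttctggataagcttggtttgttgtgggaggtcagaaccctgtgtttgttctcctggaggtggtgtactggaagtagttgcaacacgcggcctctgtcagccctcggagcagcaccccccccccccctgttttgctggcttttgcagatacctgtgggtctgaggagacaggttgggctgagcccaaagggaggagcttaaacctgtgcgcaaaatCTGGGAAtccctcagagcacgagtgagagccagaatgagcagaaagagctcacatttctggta
Cpb2: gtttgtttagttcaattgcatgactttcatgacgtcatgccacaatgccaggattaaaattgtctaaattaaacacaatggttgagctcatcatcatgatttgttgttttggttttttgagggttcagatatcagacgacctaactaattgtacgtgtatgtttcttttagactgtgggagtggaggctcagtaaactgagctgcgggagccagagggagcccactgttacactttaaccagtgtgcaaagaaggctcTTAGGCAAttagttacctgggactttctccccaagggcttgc
F13b: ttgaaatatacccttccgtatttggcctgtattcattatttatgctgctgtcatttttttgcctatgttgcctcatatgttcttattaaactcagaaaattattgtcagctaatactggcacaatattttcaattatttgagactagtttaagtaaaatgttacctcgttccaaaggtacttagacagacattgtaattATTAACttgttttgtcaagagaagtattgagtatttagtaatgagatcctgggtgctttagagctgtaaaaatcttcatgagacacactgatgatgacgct
Serpind1: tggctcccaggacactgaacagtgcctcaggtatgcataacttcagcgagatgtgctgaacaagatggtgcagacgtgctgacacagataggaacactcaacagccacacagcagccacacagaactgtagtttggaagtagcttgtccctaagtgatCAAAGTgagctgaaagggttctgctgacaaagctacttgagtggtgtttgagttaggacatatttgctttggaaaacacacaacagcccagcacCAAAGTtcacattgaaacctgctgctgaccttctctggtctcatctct

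The CTGGGAA of Fgg lay from base -13 to base -7, where -1 is the base before the gene's start and 1 the first base of the gene. In Cpb2 the match lay from base 9 to base 16, in F13b from -51 to -46, and in Serpind1 there were 2 matches, from -92 to -87 and from 3 to 8. Promoters were at hand for 26 of the 34 members and searched on both strands for 7 motifs. TTGCNNAA was found in 8 of 26 members' promoters (30.8%) against 10.8% of all 32851 promoters of the same length, and GTTAAT in 6 (23.1%) against 7.1%. CAAAGT was found in 5 (19.2%) against 14.4% of all promoters, and CTGGGAA in as many against 11.1%. TTCNNNGAA (a STAT type site, which can share bases with the IL-6 type core) was in 5 as well, against 8.3%. GGGNNTTCC (an NF-kB type site) was in none of the 26 and in 5.82% of all promoters, and TATAAA was in 2 (7.69%) against 13.6%. The same search covered 18 promoters of other hepatocyte plasma proteins and 15 of acute phase genes, lists described below. TTGCNNAA was in 38.9% and 53.3% of these, GTTAAT in 33.3% and 6.67%, and CAAAGT in 38.9% and 20.0%. CTGGGAA and TTCNNNGAA were each in 11.1% and 26.7%. No motif more frequent in members than in all promoters was thus particular to members. Such matches are descriptions of the sequence. They occurred on both sides of the response: CTGGGAA was also present in C1ra, Masp2 and F9, which fell with APAP.

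Averaged over the 3 genotype labels, APAP moved the members in both directions. Fgg, the gamma chain of fibrinogen, and Cpb2, a carboxypeptidase that protects fibrin from plasmin, rose. F13b, Serpind1, Proc, C1s1, C8g, C1ra, Masp2, F9 and F12 fell, and 23 members did not pass the test. In count, 2 of 34 members were higher, where 9.81% of all 11083 genes tested were higher, and 9 of 34 were lower, where 13.3% of all genes were lower (limma on log2(FPKM + 1), Benjamini-Hochberg adjusted p below 0.05). The median log2 change was -0.21 over members and -0.02 over all genes. The share of rises and falls depended on the scaling: after quantile normalisation 4 members were higher and 3 lower, with a median of 0.02. Of all 11083 genes, 1151 were higher and 1169 lower in that fit. Leaving out OE saline 2 left 1 higher and 5 lower, leaving out WT saline 3 left 4 higher and 5 lower, and leaving out either Het saline 1 or OE APAP 2 left 1 higher. Only Fgg, F13b and Proc kept their call in all 25 alternatives that could be fitted, with quantile normalisation among them.

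**Figure D1:**
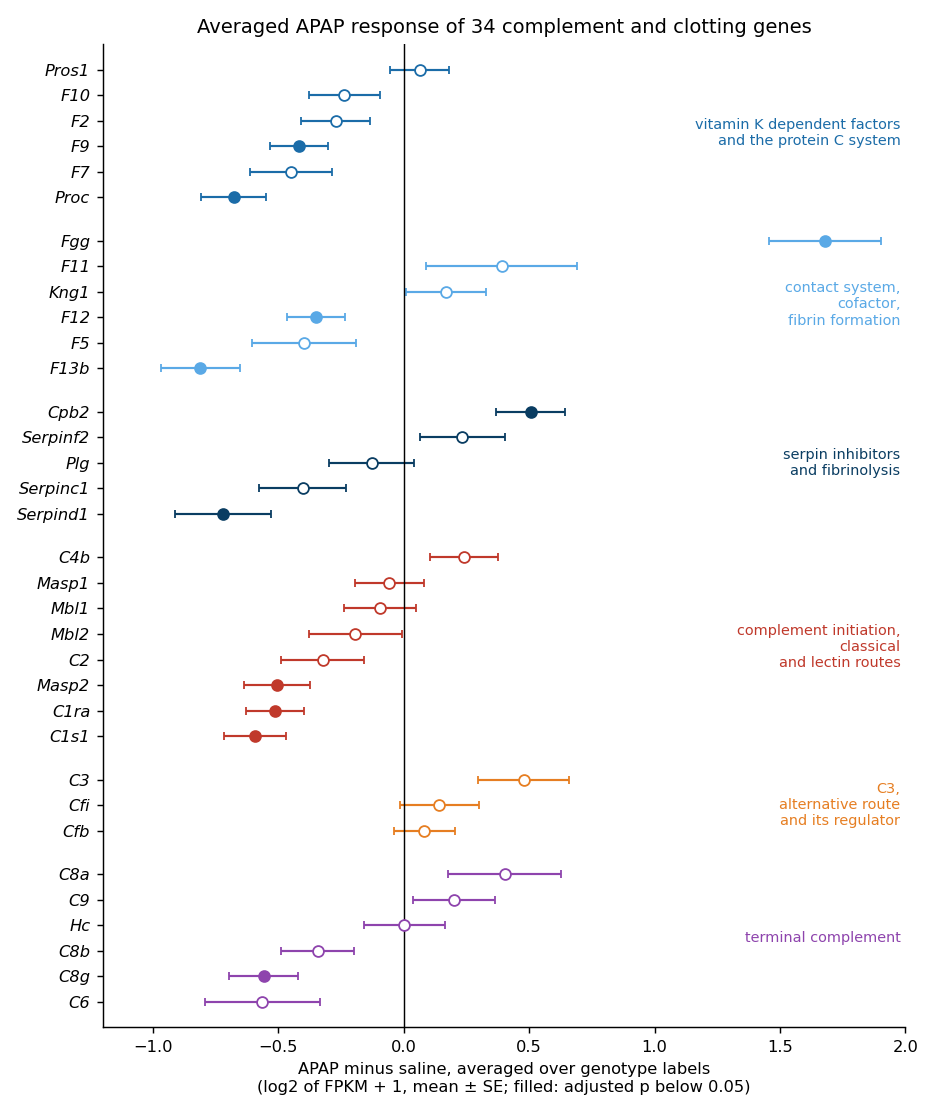
Mean log2 difference between APAP and saline libraries (horizontal axis, log2 of FPKM + 1, with its standard error), averaged over the 3 genotype labels, for each of the 34 genes by role; filled points passed an adjusted p of 0.05. Fgg stands alone at 1.68, F13b, at -0.81, is the lowest, and rises and falls occur within the same role.

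Fibrin formation held both the largest rise and the largest fall. Fgg (ENSMUSG00000033860, chr3:83007724-83015049 on GRCm38, plus strand) was at 1730.4, 1958 and 1465 FPKM in WT saline and 4194, 5239.9 and 3524 FPKM in WT APAP. In Het it was at 1406 and 1347 FPKM under saline and 6372, 4831 and 4547 FPKM under APAP. In OE it was at 2185 and 1048 FPKM under saline and 1219 and 4648 FPKM under APAP. The WT and Het groups did not overlap, while OE APAP 1 lay within the OE saline range and below every WT and Het saline library. The averaged change of Fgg was 1.68 ± 0.22 (SE) on the log2 scale (adjusted p = 0.000617), a 3.20-fold rise on the scale of FPKM + 1. Its partner chains Fga and Fgb were listed at 0 in all 3 Het APAP libraries and were left out of the fit as failed estimates. Outside Het APAP, the Fga to Fgg ratio of FPKM was 1.065 to 1.414 and the Fgb to Fgg ratio 0.520 to 0.681, with Fga at 2188, 2285 and 1837 FPKM in WT saline and 5320.2, 7407 and 4455 FPKM in WT APAP.

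F13b, the carrier subunit of factor XIII, which cross-links the finished fibrin, went the other way (chr1:139501702-139523752, plus strand). Its level was 105, 105 and 103 FPKM in WT saline and 63.0, 63.5 and 43.9 FPKM in WT APAP. Het libraries had 91.0 and 94.5 FPKM under saline and 47.5, 24.6 and 36.5 FPKM under APAP, and OE libraries 93.2 and 89.2 and 77.8 and 64.3 FPKM. At 200 mg/kg, every APAP library of a genotype label was below every saline library of the same label. The averaged change of F13b was -0.81 ± 0.16 (SE) on the log2 scale (adjusted p = 0.00362). Set against each other, Fgg exceeded F13b 14.2 to 18.6 times in FPKM in the WT saline libraries and 66.6 to 82.5 times in the WT APAP libraries, and 125 to 196 times in Het APAP. F12, the contact factor that starts the intrinsic route, fell by 0.35 ± 0.12 (SE) on the log2 scale, with an adjusted p of 0.045 by limma, and lost the call in 16 of 25 alternatives. F5 (factor V), F11 (factor XI) and Kng1 (kininogen) did not pass, with averaged log2 changes of -0.40 ± 0.21, 0.39 ± 0.30 and 0.17 ± 0.16 (SE). Mouse Kng1 has a close copy, Kng2, and how shared reads were assigned is not given in the sources used here.

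**Figure D2:**
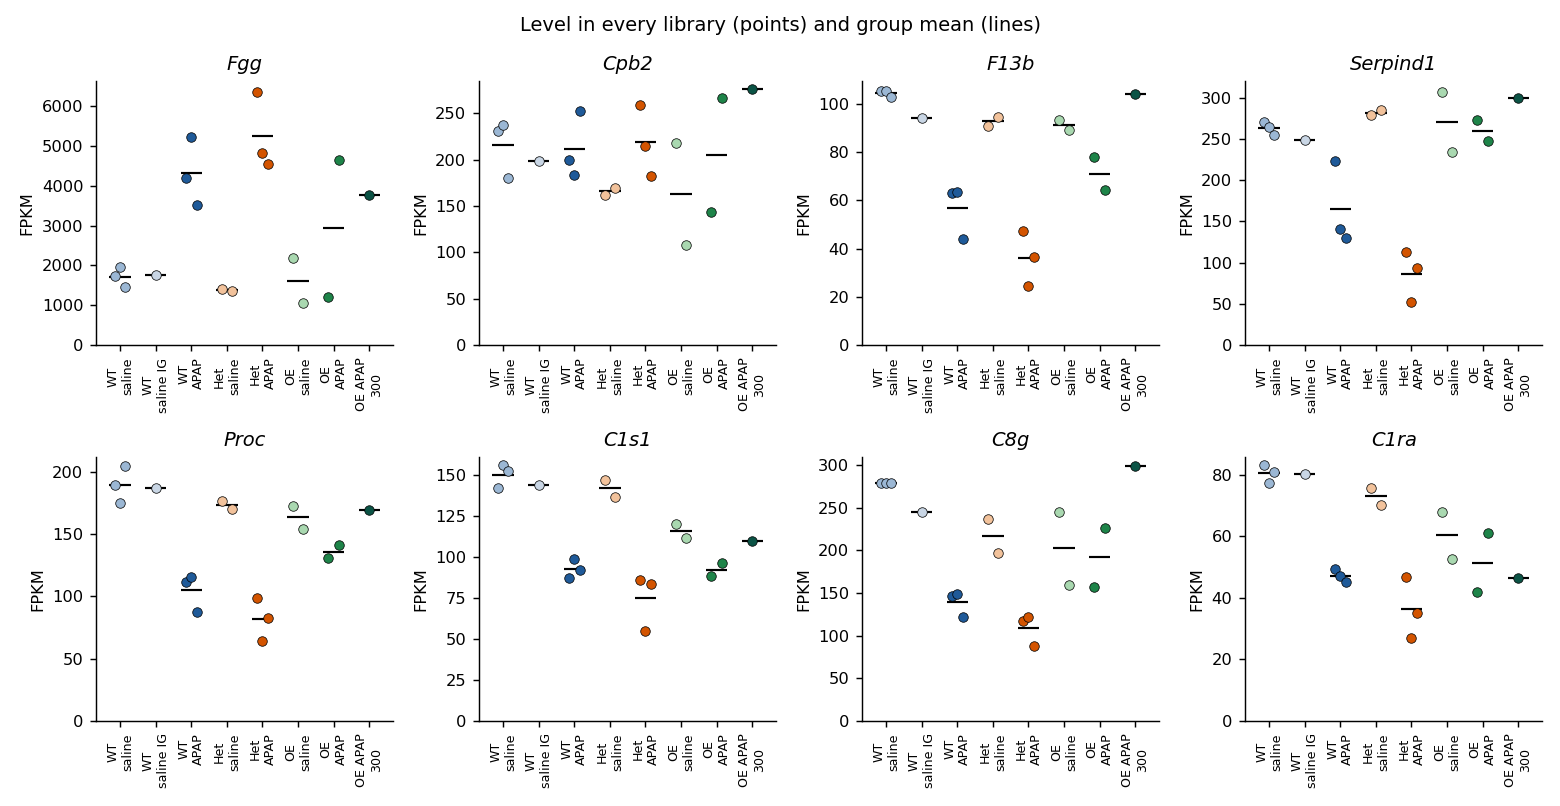
FPKM (vertical axes, from 0) of the 8 genes with the largest changes past the threshold, 1 point per library and a line at the group mean, in the 8 label groups. Fgg is at 3524 FPKM or more in every WT and Het APAP library, F13b, Serpind1 and Proc are lower in WT and Het APAP than in any saline library of the same label, and Cpb2 overlaps between WT saline and WT APAP.

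Among the vitamin K dependent factors, the anticoagulant protein C changed most. Proc, whose product cuts the cofactors of clotting once activated, was at 189, 175 and 205 FPKM in WT saline and 111, 116 and 87.3 FPKM in WT APAP. Het values were 176 and 169.8 FPKM under saline and 98.98, 64.2 and 82.8 FPKM under APAP, and OE values 173 and 154 and 130.4 and 141 FPKM. No label's saline and APAP libraries overlapped. Proc fell by 0.68 ± 0.13 (SE) on the log2 scale (adjusted p = 0.00353). Pros1 (protein S), the cofactor of protein C, had an averaged log2 change of 0.06 ± 0.12 (SE) and did not pass, so that the ratio of Proc to Pros1 in FPKM was 7.88 to 9.36 in WT saline and 3.65 to 4.92 in WT APAP, and 6.56 to 6.94 in Het saline and 3.09 to 3.72 in Het APAP.

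Of the procoagulant members of the same family, 1 of 4 passed and was lower, where 13.3% of all genes were lower. F9 (factor IX) was at 67.3, 81.2 and 66.2 FPKM in WT saline and 63.7, 53.2 and 41.9 FPKM in WT APAP. In Het it was at 79.7 and 84.9 FPKM under saline and 42.8, 37.3 and 38.6 FPKM under APAP, with no overlap for either label. In OE it was at 67.0 and 67.1 FPKM under saline and 75.3 and 71.2 FPKM under APAP, with both APAP values above both saline values. F9 fell by 0.42 ± 0.12 (SE) on the log2 scale in the averaged response (adjusted p = 0.0226) and lost the call in 6 of 25 alternatives, among them leaving out OE saline 2. F7, the factor that starts clotting with tissue factor, and the neighbouring F10 did not pass, with log2 changes of -0.45 ± 0.16 and -0.24 ± 0.14, nor did F2 (prothrombin), with -0.27 ± 0.14.

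Of the serpins and fibrinolysis genes, Serpind1, heparin cofactor II, a serpin that blocks thrombin, fell and Cpb2 rose. Serpind1 (chr16:17331371-17343575, plus strand) was at 270.4, 265 and 255 FPKM in WT saline and 224, 141 and 130.4 FPKM in WT APAP. The Het libraries showed the widest gap, with 279 and 285 FPKM under saline and 113, 52.4 and 93.4 FPKM under APAP. OE libraries were at 308 and 234 FPKM under saline and 273 and 247 FPKM under APAP, which overlap. The averaged change of Serpind1 was -0.72 ± 0.19 (SE) on the log2 scale (adjusted p = 0.0176); it lost the call in 6 of 25 alternatives, quantile normalisation and leaving out OE saline 2, OE APAP 2 or WT saline 3 among them.

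Cpb2 rose only after the correction for perfusion. Its level was 231, 237 and 181 FPKM in WT saline and 199.6, 183 and 253 FPKM in WT APAP, and these groups overlap. Het libraries had 163 and 169 FPKM under saline and 259, 215 and 183 FPKM under APAP, all 3 above both saline libraries. OE libraries had 219 and 109 and 144 and 266 FPKM. The averaged change was 0.51 ± 0.14 (SE) on the log2 scale (adjusted p = 0.0198), and without the perfusion term it was 0.23 with an adjusted p of 0.375 by limma. The antithrombin gene Serpinc1, Plg (plasminogen) and Serpinf2 (the inhibitor of plasmin) had log2 changes of -0.40 ± 0.17, -0.13 ± 0.17 and 0.23 ± 0.17 and did not pass.

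Of the 8 genes that start complement, 3 proteases fell and 0 rose, where 13.3% of all genes were lower and 9.81% higher. C1s1 and C1ra, the proteases of the C1 complex, lie 6.9 kb apart on chromosome 6. C1s1 was at 142, 156 and 152 FPKM in WT saline and 87.0, 98.7 and 92.1 FPKM in WT APAP. C1s1 in Het was at 147 and 137 FPKM under saline and 85.7, 54.4 and 83.4 FPKM under APAP, and in OE at 119.7 and 111 and 88.0 and 96.0 FPKM. No label's groups overlapped, and the averaged change of C1s1 was -0.59 ± 0.12 (SE) on the log2 scale (adjusted p = 0.00548).

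C1ra was at 83.1, 77.3 and 81.0 FPKM in WT saline and 49.4, 47.3 and 45.1 FPKM in WT APAP. Its Het values were 75.7 and 70.3 FPKM under saline and 46.8, 26.8 and 35.1 FPKM under APAP, with a gap between the groups, and its OE values 68.1 and 52.7 and 41.9 and 61.1 FPKM, which overlap. The averaged change of C1ra was -0.51 ± 0.12 (SE) on the log2 scale (adjusted p = 0.0078). Both genes kept the call in 24 of 25 alternatives and lost it under quantile normalisation, and the ratio of C1s1 to C1ra in FPKM stayed at 1.57 to 2.38 in all 17 libraries. Close copies of both genes exist in the mouse (C1rb and C1s2), and how reads shared with them were assigned is not given in the sources used here.

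Masp2, the protease that carries the lectin route, was at 174, 141 and 156 FPKM in WT saline and 94.9, 92.8 and 79.9 FPKM in WT APAP. Het libraries had 143 and 123 FPKM under saline and 93.2, 50.9 and 58.2 FPKM under APAP, and OE libraries 149 and 113 and 104 and 125 FPKM. The WT and Het groups were separate and the OE groups overlapped. Masp2 fell by 0.50 ± 0.13 (SE) on the log2 scale (adjusted p = 0.0159), a call lost in 6 of 25 alternatives, among them leaving out OE saline 2, OE APAP 2, Het saline 1 or WT saline 3. Its relative Masp1 had a log2 change of -0.06 ± 0.14. The lectins Mbl1 and Mbl2, which bind sugars on microbes, had log2 changes of -0.10 ± 0.14 and -0.19 ± 0.18, and C2 and C4b, the substrates of these proteases, -0.32 ± 0.16 and 0.24 ± 0.13. None of Masp1, Mbl1, Mbl2, C2 and C4b passed in the main fit. After quantile normalisation C4b did pass as higher, at 0.48 with an adjusted p of 0.0288 by limma. C4b has a close copy in the mouse, C4a.

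None of the 3 genes of C3 and the alternative route passed in the main fit. C3, the substrate on which all routes converge, was at 1081, 1201 and 1249.5 FPKM in WT saline and 1567, 1937 and 1444 FPKM in WT APAP, all 3 above the saline libraries. In Het it was at 1190.5 and 1072 FPKM under saline and 1868, 939.6 and 1284 FPKM under APAP, which overlap. OE libraries were at 1386 and 1339 FPKM under saline and 1315 and 2116 FPKM under APAP, which overlap. The averaged change of C3 was 0.48 ± 0.18 (SE) on the log2 scale (adjusted p = 0.0773) and did not pass. After quantile normalisation C3 did pass, at 0.64 with an adjusted p of 0.0445 by limma. Cfb, the protease of the alternative route, and Cfi, which inactivates C3b, had log2 changes of 0.08 ± 0.12 and 0.14 ± 0.16 and did not pass.

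In terminal complement 1 of 6 members passed, C8g, which is near the 13.3% of all genes that were lower. C8g, the small lipocalin chain of C8, was at 279, 279.7 and 279 FPKM in WT saline and 147, 149 and 121 FPKM in WT APAP. Het libraries had 237 and 197 FPKM under saline and 117, 121 and 87.5 FPKM under APAP, again without overlap, and OE libraries 245 and 159 and 158 and 227 FPKM, which overlap. The averaged change of C8g was -0.56 ± 0.14 (SE) on the log2 scale (adjusted p = 0.0129), and leaving out WT saline 3 ended the call (adjusted p = 0.061 by limma).

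The other 2 chains of C8 did not pass. C8a and C8b, which lie 11.1 kb apart on chromosome 4 on opposite strands, had averaged log2 changes of 0.40 ± 0.23 and -0.34 ± 0.15. C8b divided by C8a in FPKM was 0.544 to 0.693 in the WT saline libraries and 0.406 to 0.459 in WT APAP. In Het that ratio was 0.725 to 0.781 under saline and 0.267 to 0.402 under APAP, so both labels separated. In OE it was 0.583 to 0.940 under saline and 0.512 to 0.859 under APAP, which overlap. The ratios were not tested. Hc (complement C5), C6 and C9 had log2 changes of 0.00 ± 0.16, -0.56 ± 0.23 and 0.20 ± 0.16, none of which passed. C6 was lowest in OE APAP 1 at 24.1 FPKM and had 126, 133 and 102 FPKM in WT saline and 99.9, 59.9 and 56.9 FPKM in WT APAP.

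Fgg took a larger share of the members' summed level after APAP. It held 11.65% to 16.8% of the members' summed FPKM in the 8 saline libraries, and 25.2% to 48.1% in the APAP libraries other than OE APAP 1, which was at 12.8%. In Het APAP the other 33 members together had 8781, 5204 and 6363 FPKM, against 9381 and 9029 FPKM in Het saline. With Fgg counted, the Het APAP sums were 15153, 10035 and 10911 FPKM and the Het saline sums 10787 and 10376 FPKM, so in summed FPKM the groups separated without Fgg and overlapped with it. The library totals also differed, and as a share of a library's summed FPKM the other 33 members made up 1.73%, 0.808% and 1.363% in Het APAP against 1.358% and 1.326% in Het saline. On that scale the groups overlap, with 2 of 3 APAP libraries above both saline libraries.

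**Figure D3:**
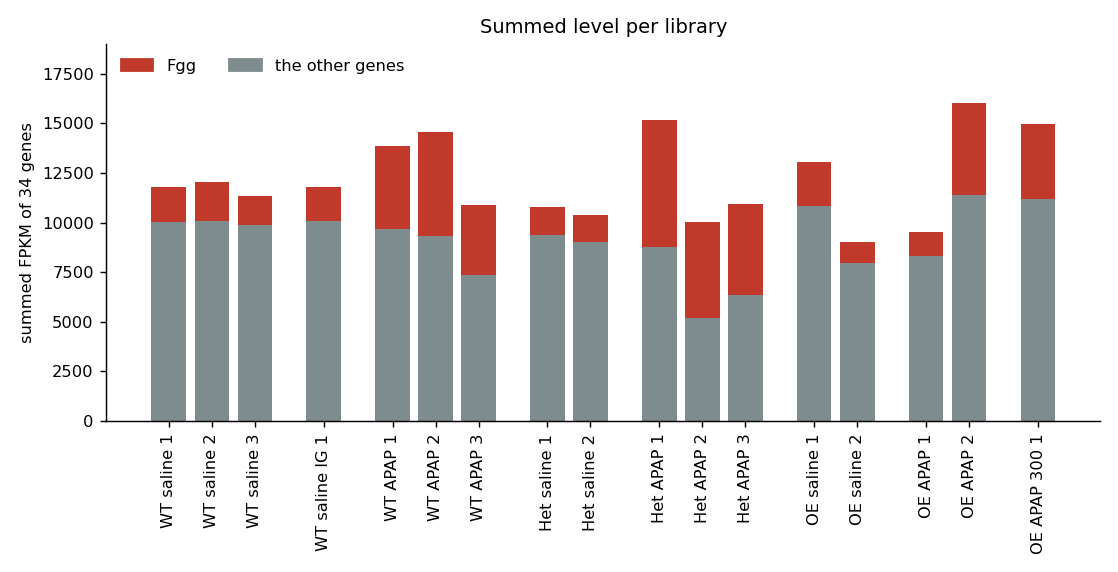
Summed FPKM of the 34 genes in each of the 17 libraries (bars from 0), split into Fgg and the other genes. Fgg makes up 41.7% to 48.1% of the bar in the 3 Het APAP libraries and 13.04% and 12.98% in the Het saline libraries, and OE APAP 1 has a bar like those of saline livers.

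Within single labels, 3 members passed in WT, 13 in Het and 0 in OE, and the differences between labels were tested separately. In WT, Fgg rose by 1.89 ± 0.34 (SE) on the log2 scale (adjusted p = 0.012 by limma), and C8g at -0.81 and Proc at -0.77 fell, with adjusted p-values of 0.0463 and 0.0439. That is 1 member higher and 2 lower, where 1.97% of all genes were higher and 3.57% lower. Quantile normalisation left 1 higher and 0 lower, where 237 of all genes were higher and 247 lower. The fall of Proc was lost in 17 of 25 alternatives and that of C8g in 16, leaving out any WT library included, and without the perfusion term the rise of Fgg in WT was 1.32 with an adjusted p of 0.0604. In non-perfused WT livers alone, with the IG library counted as saline, the APAP minus saline difference was 1.41 for Fgg, -0.91 for Proc and -0.80 for F13b on the log2 scale (3 against 2 libraries, no test). Those saline livers were all in lane L006 and the APAP livers all in L005, so this difference too cannot be told apart from lane.

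In Het, 2 members were higher, where 9.07% of all genes were, and 11 were lower, where 13.1% of all genes were. Fgg rose by 2.49 ± 0.38 (SE) on the log2 scale and Cpb2 by 0.80 ± 0.23. The falls were in Serpind1 at -1.59, F13b at -1.28, Proc at -1.0003, F9 at -0.99, Serpinc1 at -0.96, C1s1 at -0.85, C8g at -0.80, C1ra at -0.79, Masp2 at -0.77, C8b at -0.76 and F12 at -0.72. Serpinc1 and C8b, which did not pass in the averaged response, passed here, and they lost the call in 14 and 15 of 26 alternatives, leaving out either Het saline library included. Their adjusted p-values reached 0.267 and 0.351 by limma. Serpinc1 was at 1627 and 1606 FPKM under saline and 979, 566 and 557 FPKM under APAP. The median over members was -0.46 against -0.06 over all genes. Quantile normalisation left 2 higher and 3 lower, where 1092 of all genes were higher and 1126 lower. Leaving out Het saline 1 left 1 higher and 3 lower, leaving out Het saline 2 left 1 higher and 4 lower, and leaving out OE APAP 1 left 1 higher. With the lane in place of perfusion, 1 was higher and 1 lower. Within the perfused Het livers of lane L008 (1 APAP against 2 saline libraries, no test), the difference was 2.21 for Fgg, -1.31 for Serpind1 and -0.95 for F13b on the log2 scale.

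In OE, 0 of 34 members were called, as were 0% of all genes in either direction, and 0 members had an unadjusted p below 0.05 by limma against 4.82% of all genes. The member with the largest OE change was Fgg at 0.65 ± 0.37 (SE) on the log2 scale (adjusted p = 1), with a 95% interval of -0.15 to 1.46. This value rests on which OE APAP library is kept: it was 1.33 without OE APAP 1 and -0.03 without OE APAP 2. F13b was at -0.36 with an interval of -0.92 to 0.20, and Serpind1 at -0.05 with an interval of -0.73 to 0.64.

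**Figure D4:**
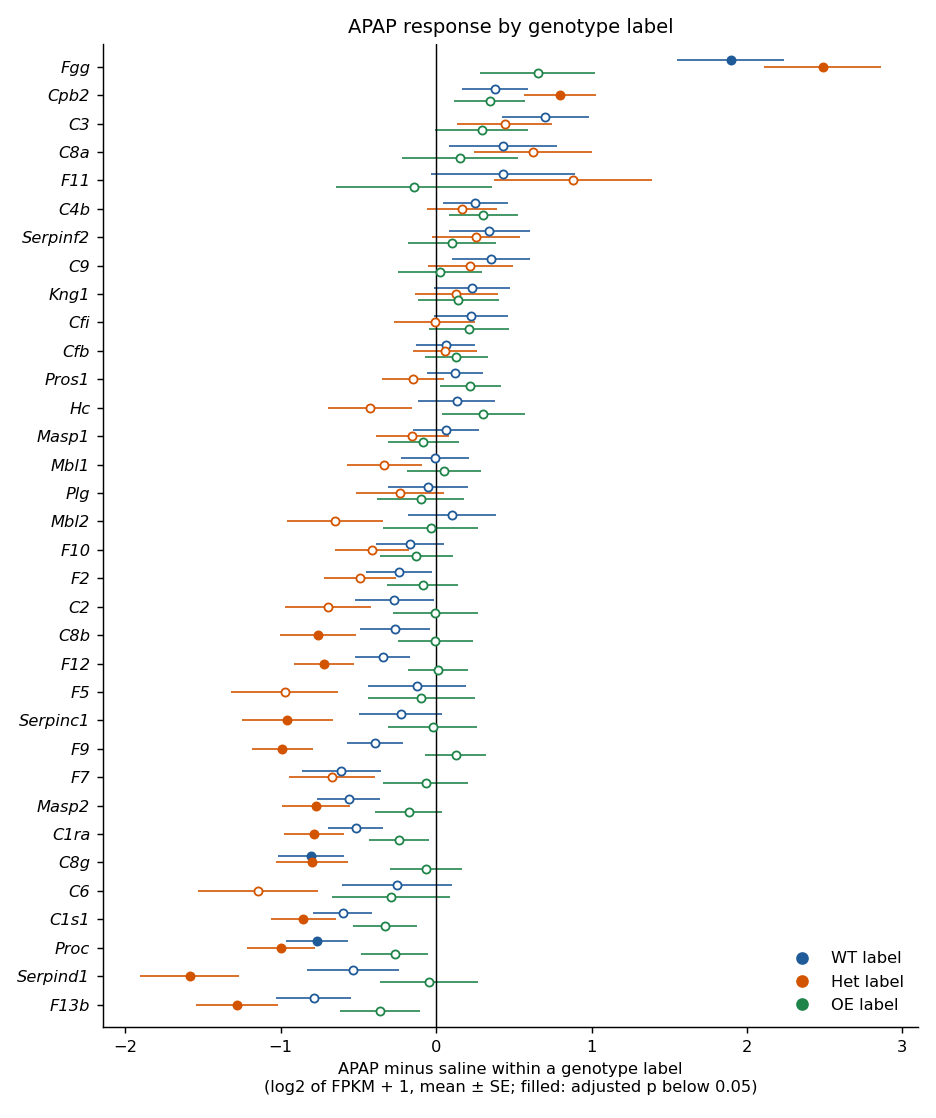
Log2 difference between APAP and saline (horizontal axis, log2 of FPKM + 1, with its standard error) for the 34 genes within the WT, Het and OE labels; filled points passed an adjusted p of 0.05. Het points lie farthest to the left for most falling genes, such as Serpind1 at -1.59 against -0.53 in WT and -0.05 in OE.

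Differences between these responses were tested as interaction terms, and no member passed. For Het minus WT, 0 of 34 were called, as were 0% of all genes. F9 and Serpind1 had an unadjusted p below 0.05 by limma, 2 of 34 where 8.27% of all genes did. Serpind1 differed by -1.05 ± 0.39 (SE) on the log2 scale (adjusted p = 0.601). For OE minus WT, 0 were called, as were 0% of all genes. Fgg (-1.24 ± 0.51) and C8g had an unadjusted p below 0.05, 2 of 34 where 6% of all genes did. OE minus Het gave 0 called members where 0.018% of all genes were called. There, 9 of 34 members and 18.4% of all genes had an unadjusted p below 0.05. Among these members were F9 at 1.11 ± 0.28 (adjusted p = 0.1), Serpind1 at 1.54 ± 0.45 (adjusted p = 0.125) and Fgg at -1.84 ± 0.53 (adjusted p = 0.122). These comparisons share libraries and are not independent of each other.

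Among APAP livers, the Het libraries had lower fitted values than WT for all 34 members. The median was -0.53 on the log2 scale against -0.02 over all genes. Among saline livers, too, 29 of 34 members were lower in Het, with a median of -0.26 against 0.01 over all genes. Under APAP none passed the adjusted threshold, where 0.0541% of all genes did. There, 22 of 34 members and 19.1% of all genes had an unadjusted p below 0.05 by limma. The largest differences were in Serpind1 at -1.04 ± 0.27 (SE), C6 at -0.98 ± 0.32 and C8b at -0.94 ± 0.20, with adjusted p-values of 0.0769, 0.133 and 0.063. For C8b the WT APAP libraries were at 146, 114 and 96.9 FPKM and the Het APAP libraries at 96.6, 52.8 and 70.6 FPKM, with the highest Het value just below the lowest WT value. Fgg differed by -0.0025 with a 95% interval of -0.68 to 0.68. Within lane L005, which holds 2 Het and 3 WT livers, the median over members was -0.59 against -0.04 over all genes. In that lane, 33 of 34 members were lower in Het. The share of all genes lower in Het is not given here, so these counts by direction cannot be set against it. The count of members past the adjusted threshold rose from 0 to 6 without Het APAP 1, 9 without WT APAP 3 and 2 without WT saline 3. It was 10 with the lane in place of perfusion and 15 with array weights. Quantile normalisation left it at 0, while 23 of all genes were higher and 67 lower. How many of all genes were called in the other fits is not given here, so their counts cannot be set against that share.

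The OE APAP libraries had 12 members higher and 1 lower than the Het APAP libraries, 13 of 34 where 13.7% of all genes were called. This count did not survive several single changes. None was left without OE APAP 1 (0 genes), 0 were left when OE saline 2 was dropped together with it, 0 with lane in place of perfusion and 0 with only the compared groups in the fit. It was 6, 5 and 7 without Het APAP 2, Het APAP 3 and OE APAP 2. Quantile normalisation left 3 higher and 1 lower, where 651 of all genes were higher and 613 lower. In the 1 perfused pair of lane L008 the median over members was 0.38 against 0.03 over all genes. There, 31 of 34 were higher in OE, and no test is possible. Among the perfused saline livers of that lane, 25 of 34 were higher in OE (1 OE against 2 Het libraries, no test). The median over members was 0.18 there, against -0.02 over all genes. The share of all genes higher in OE is not given here, so the counts of 31 and 25 cannot be set against it.

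The members called in that comparison span most roles. Serpind1 differed most, at 1.60 ± 0.29 (SE) on the log2 scale (adjusted p = 0.00778), from the values given above: both OE APAP libraries were above all Het APAP libraries. Serpinc1 differed by 1.04 ± 0.27 (adjusted p = 0.0256), with OE APAP at 1282 and 1670.2 FPKM and Het APAP at 979, 566 and 557 FPKM. Among complement genes, C2 differed by 1.08 ± 0.25 (adjusted p = 0.0177), at 42.1 and 49.9 FPKM in OE APAP and 30.2, 12.9 and 20.4 FPKM in Het APAP. Both of these, too, were free of overlap.

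Another 4 members, from the start and end of the chains, were higher in OE. F7 was at 38.5 and 30.6 FPKM in OE APAP and 23.3, 11.2 and 18.1 FPKM in Het APAP (0.97 ± 0.25, SE, adjusted p = 0.027). Hc was at 237 and 282 FPKM in OE APAP and 168, 104 and 148 FPKM in Het APAP (0.86 ± 0.25, adjusted p = 0.0386). F12 was at 158 and 165 FPKM in OE APAP and 110.3, 77.1 and 90.6 FPKM in Het APAP (0.77 ± 0.18, adjusted p = 0.0161). These 3 showed no overlap, whereas Mbl2 at 188 and 297 FPKM in OE APAP and 182, 81.5 and 105 FPKM in Het APAP came close to it and lost its call (0.92 ± 0.28, adjusted p = 0.0482) in 19 of 26 alternatives.

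The other higher members were F13b at 0.97, F9 at 0.86, C8g at 0.76, Masp2 at 0.74 and Proc at 0.72 on the log2 scale, with adjusted p-values of 0.0119 to 0.0352. Fgg was the member lower in OE, at -1.27 ± 0.34 (SE, adjusted p = 0.0314), and only OE APAP 1 lay far below the Het values, OE APAP 2 being inside their range. Against WT APAP, the OE APAP libraries had 0 of 34 members called, where 0.00902% of all genes were. In that comparison 7 of 34 members and 17.2% of all genes had an unadjusted p below 0.05. Under saline, 0 members were called for Het minus WT (0.0361% of all genes), OE minus WT (0.0361%) and OE minus Het (0.00902%). An unadjusted p below 0.05 was reached there by 3, 3 and 0 of 34 members. The shares of all genes were 11.9%, 5.97% and 5.35%.

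OE saline 2 and OE APAP 1, both non-perfused and from lane L004, stood apart from their group partners in many members at once. F11 was at 37.6 FPKM in OE saline 1 and 9.48 FPKM in OE saline 2, and at 9.08 FPKM in OE APAP 1 and 32.0 FPKM in OE APAP 2. C8a was at 309 and 96.3 FPKM in the saline libraries and at 109.5 and 336 FPKM in the APAP libraries, in the same order. Cpb2, C9, C8b, Mbl2, C6 and Fgg were lower in the same libraries by more than 1.5-fold. In all, 8 of 34 members (23.5%) differed by more than 1.5-fold in this direction in both pairs, against 10.1% of all genes tested. The single OE liver given 300 mg/kg came from the same lane and was not perfused, and it had 29.4 FPKM of F11, 326 FPKM of C8a and 3767 FPKM of Fgg, nearer to the higher than to the lower library of each pair. F5 went the other way, at 51.4 and 88.3 FPKM in OE saline 1 and 2, and at 72.8 and 54.5 FPKM in OE APAP 1 and 2.

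**Figure D5:**
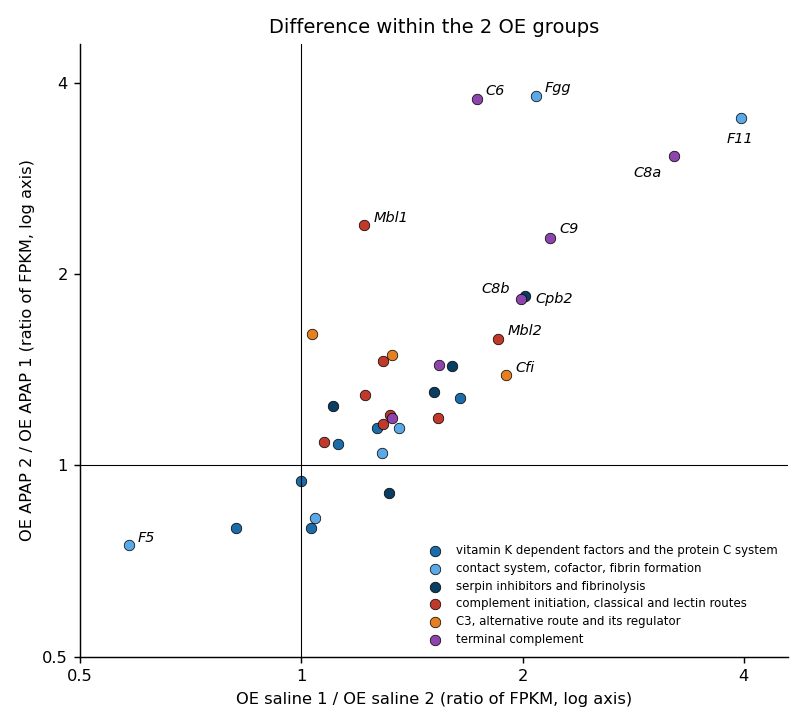
Ratio of FPKM between the 2 OE saline libraries (horizontal axis, log scale) and between the 2 OE APAP libraries (vertical axis, log scale), 1 point per gene, colored by role. F11, C8a, Fgg and C6 lie farthest from 1, toward low levels in OE saline 2 and OE APAP 1, and F5 lies on the opposite side.

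The single livers with other treatments gave values without a spread. In the WT liver given saline by IG, Fgg was at 1761 FPKM, Proc at 187 FPKM and F13b at 94.1 FPKM, the values of Fgg and Proc lying within the WT saline range and that of F13b below it. The OE liver given 300 mg/kg had F13b at 104 FPKM, Proc at 169 FPKM and C8g at 299 FPKM, each above both OE livers given 200 mg/kg. That library also had a summed FPKM of 916006, against 642754 and 720365 in OE APAP 1 and 2. As a share of summed FPKM, the members other than Fgg made up 1.221% there and 1.291% and 1.579% in OE APAP 1 and 2. In OE saline 1 and 2 that share was 1.366% and 1.291%. With the 300 mg/kg liver set against OE saline 2 of the same lane, the median over members was 0.37 on the log2 scale. Over all genes it was 0, and Cpb2 was 1.34 and Fgg 1.84 higher. OE saline 2 was the lower of the OE saline libraries for both genes: Cpb2 was at 109 FPKM there, 219 FPKM in OE saline 1 and 277 FPKM in the liver given 300 mg/kg, and Fgg at 1048, 2185 and 3767 FPKM.

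Other genes of the same systems, from lists chosen with earlier results of these data known, moved as follows in the averaged response. Of 14 tested complement regulators and other liver complement genes, 0 rose and 6 fell, with a median of -0.21 (adjusted p below 0.05 by limma). At that threshold 9.81% of all genes rose and 13.3% fell, and the same shares apply to the lists that follow. At an unadjusted p below 0.05, reached by 35.5% of all genes in either direction, 2 of the 14 were higher, Clu at 0.37 and C4bp at 0.30. Cd59a, which blocks the membrane attack complex, changed by -0.76 ± 0.10 (SE) on the log2 scale, C1rl by -0.56 and Colec10, a collectin of the lectin route, by -0.79. Of 8 C1q and complement receptor genes of blood cells, 2 rose, Itgam at 1.29 and C5ar1 at 0.95, and Itgam is also a marker on the monocyte list. Of 15 other clotting factors, inhibitors and receptors, 4 rose and 1 fell. Serpina10, the inhibitor that acts with protein Z, was at 1.08, Procr, the receptor of protein C, at 1.08, F13a1, the catalytic subunit partner of F13b, at 1.35, and Hgfac at -0.57.

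Of 6 tested genes of plasminogen activation and its inhibitors, 3 rose and 1 fell, with a median of 0.81. Plaur, the urokinase receptor, was at 0.276, 0.229 and 0.116 FPKM in WT saline, 0.81, 1.61 and 3.75 FPKM in WT APAP and 4.90, 7.66 and 7.25 FPKM in Het APAP. It rose by 1.55 ± 0.23 (SE) on the log2 scale, with an adjusted p of 0.00105 by limma, and in OE APAP it was at 0.582 and 1.81 FPKM. Anxa2 and Plau, the urokinase itself, rose by 2.21 and 0.93, and Serpine2 fell by 1.06. Of 6 genes of the vitamin K cycle and factor secretion, only Vkorc1, the reductase that recycles vitamin K, passed, at -0.44 ± 0.15 (adjusted p = 0.0462).

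Acute phase genes and other plasma proteins of hepatocytes were set beside the members. Of 19 acute phase genes, 16 rose and none fell, with a median of 1.59, Fgl1 at 1.93, Itih3 at 0.90, Apcs at 2.89 and Hp at 1.59 among them. Of 21 other plasma proteins of hepatocytes, 3 rose and 8 fell, with a median of -0.42, and Igfals, Rbp4, Apoa2 and Apoe were at -1.65, -1.17, -0.94 and -0.81. Of 13 genes of IL-6, STAT3 and NF-kB signalling, 6 rose and 1 fell, with Osmr at 1.16, Stat3 at 0.94, Il1r1 at 1.67 and Il1rap at -1.04. Of 13 transcription factors of hepatocyte genes, 4 fell and none rose: Nr1h4, Cebpa, Onecut1 and Foxa2 were at -1.09, -0.92, -1.37 and -0.59. In the 3 Het APAP libraries Cebpa was at 35.2, 23.9 and 35.9 FPKM, against 69.5 and 92.9 FPKM in Het saline.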

How the data were processed

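Per the labels' protocols, 17 liver libraries were prepared with a stranded kit for total RNA and read from both ends. The submitters' processing notes name the mouse build GRCm38.p5 and the tools Cufflinks 2.2.1, Cuffdiff, TopHat2 2.0.9 and bcl2fastq 2.17.1.14. Which gene annotation was counted is not given in the sources used here. Each library has a single number per gene in the deposited table, taken as FPKM from the tools named and from the values, since no header names the unit. FPKM are not counts, so no count test was run and no counting interval can be given.

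Values were tested as log2(FPKM + 1), so folds are on that scale and are too small for weakly expressed genes. The filter on low values kept genes averaging at least 1 FPKM. Genes at 0 in every library of a genotype and drug block but with a block mean of 10 FPKM or more elsewhere (108), and neighbours within 100 kb with the same zeros (6), were left out, which left 11083. limma 3.58.1 (statmod 1.5.0, R 4.3.3) fitted the 8 label groups and perfusion with a trended, robust variance prior and 8 residual degrees of freedom. P-values were adjusted by Benjamini-Hochberg over all genes tested, at 0.05. APAP minus saline differences were taken within each of the 3 labels and averaged with equal weight. The method was checked on simulated data.

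Symbols and positions came from GENCODE M21 (GRCm38), which matched 45139 IDs. No libraries were duplicates, the smallest median absolute log2 difference being 0.135. All members with a row are named; values by library are given for members past the threshold in the averaged or a label comparison, and of each companion list up to 4 genes with the smallest p are named. The members and lists were chosen with earlier results of these data known. Some genes of the companion lists are not reported here, and the lists' counts leave them out.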

Additional observations from a re-analysis of the deposited data

How the results depend on the processing

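Of 4352 comparisons of a single member with its main value, over 26 alternatives, 0 reversed a call and 202 changed the sign of a value that had none. Where no count over all genes stands beside it, a member count from an alternative, here or above, cannot be set against that share. Whether such a count moved with the calls over all genes is not given here. No perfusion term gave 1 member higher and 15 lower in the averaged response, 0 and 6 in WT, 1 higher in Het, and a median of 0.34 for OE minus WT responses. Quantile normalisation gave 4 and 3 in the averaged response, 0 lower with a median of 0.18 in WT, 3 lower with a median of -0.17 in Het, and 4 called for OE minus Het under APAP. Without OE saline 2 and OE APAP 1 the averaged response had 1 higher, 5 lower and 1641 genes called in all (2561 in the main fit), WT had 1 lower, Het 1 higher, and OE minus Het under APAP 0. No filter on low values gave 0 lower in WT, 1 higher and 7 lower in Het, and 4 for OE minus Het under APAP. Lane in place of perfusion gave 1 higher and 1 lower in Het, 10 for Het minus WT and 0 for OE minus Het under APAP; it could not be fitted for the averaged response, WT, the Het and OE minus WT responses and their saline differences. Only the compared groups gave 0 and 0 in WT, 1 and 1 in Het, 0 for OE minus Het under APAP and 1 for Het minus WT under saline. Rare labels pooled gave 6 lower in WT, 1 higher in Het, 2 called for OE minus Het responses and a median of 0.36 for OE minus WT responses. Median-of-ratios scaling gave 1 lower in WT, where 246 of all genes were higher and 382 lower. Array weights gave 2 called for Het minus WT responses, 15 under APAP and 3 under saline.

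Leaving out 1 replicate gave 1 to 4 higher, 5 to 11 lower and 878 to 2690 genes called in the averaged response, 0 to 5 lower in WT, 1 to 3 higher and 3 to 12 lower in Het, 0 to 1 called for OE minus Het responses, 0 to 9 for Het minus WT, 0 to 1 for OE minus WT and 0 to 15 for OE minus Het under APAP. The lowest total, 878, was without OE APAP 2, and 1295 remained without OE saline 2. Where a group was left with a single library, that library was assumed to vary like the other groups. No paired analysis was possible because the replicate numbers were given in accession order and pair no samples. With no read counts, differences at low FPKM cannot be told from counting error.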
